A study of Mus musculus with 8 samples.

Results

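Drosha, Dgcr8, Xpo5, Dicer1, Tarbp2, Ago1, Ago2, Ago3, Ago4 and Tut4 encode the core proteins that make a miRNA, carry it or modify its end. They were picked by gene symbol, and all 10 were found, with 1 row each, among the 22298 gene rows of the deposited mRNA table. The study sorted B-lineage cells from the bone marrow of wild type C57BL/6 mice, all females of 8 to 10 weeks, to follow RNA through B-cell development. All gates took live (7-AAD-negative) cells with B220. Pro-B cells were those with CD43 and no IgM, pre-B cells had neither marker, immature B cells had IgM without CD43, and mature B cells were B220hi with the same IgM and CD43 status. Each stage is a pool of cells from 3 mice, sequenced as a single rRNA-depleted library and a single library of small RNA. Every difference below is therefore one between libraries, with no replicate check, and intervals cover counting error only.

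In the canonical route, Drosha and its partner Dgcr8 crop a hairpin from the primary transcript in the nucleus, and Xpo5 carries the hairpin to the cytoplasm. Dicer1, helped by the double-strand RNA-binding protein Tarbp2, cuts the hairpin to a short duplex, and an Argonaute protein keeps a strand of it as the guide for silencing. Loss of Dicer1 or of Ago2 in early blood cells is known to impair B-cell development.

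Some miRNAs take other routes, share a transcript with a member or target one, and their mature sequences are printed because of these ties. Of 15 miRNAs named here that are in the deposited table, 13 had a mature sequence in RefSeq (GRCm38.p6). Letters run 5′ to 3′, and the capitals mark the seed, bases 2 to 8.
miR-1306-5p: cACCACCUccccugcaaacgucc
miR-1306-3p: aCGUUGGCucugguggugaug
miR-451a: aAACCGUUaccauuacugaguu
miR-877-5p: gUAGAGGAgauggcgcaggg
miR-877-3p: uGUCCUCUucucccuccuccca
miR-702-3p: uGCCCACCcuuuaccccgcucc
miR-484: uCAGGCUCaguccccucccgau
miR-103-3p: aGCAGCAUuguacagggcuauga
miR-107-3p: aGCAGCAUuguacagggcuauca
Both arms of miR-1306 lie on the minus strand of chromosome 16 inside Dgcr8, at chr16:18284288-18284310 for the 5p arm and chr16:18284248-18284268 for the 3p arm. The hairpin of miR-451a (mature strand at chr11:78073186-78073207, plus strand) is cut by Ago2 and not by Dicer1. Mirtrons such as miR-877 (chr17, minus strand) and miR-702 (chr5, plus strand) are spliced from introns without Drosha, and miR-484 (chr16:14159630-14159651, plus strand) and miR-320-3p come from capped hairpins that also bypass Drosha. miR-103-3p (chr2 and chr11) and miR-107-3p (chr19) share the seed GCAGCAU and are known to target Dicer1.

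The mRNA counts differed strongly between the rRNA-depleted libraries. The estimated mRNA counts summed to 867920 in pro-B, 240231 in pre-B, 223495 in immature B and 849350 in mature B cells. The mRNA and lncRNA counts together were nearly level, with 3663439, 3709988, 3450657 and 3614857, and the mRNA counts were 23.7%, 6.48%, 6.48% and 23.5% of them. The pre-B and immature B libraries thus held few mRNA counts, and why was not tested. Levels were scaled to 1000000 counts of the library's mRNA total (CPM). A count of 0 was taken to allow up to 3 counts, which equals 12.5 CPM in pre-B and 13.4 in immature B against 3.46 in pro-B and 3.53 in mature B cells. A gene with at least 10 counts over 2 libraries was called when its CPM differed at least 2-fold and the exact 95% interval of the ratio left out 1. The 4 comparisons share libraries.

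By CPM, Xpo5, Dicer1, Ago2 and Tut4 were called lower in the pre-B library than in that of pro-B cells. Of these, Dicer1, Ago2 and Tut4 were then called higher in mature B than in immature B cells, as was Ago3. Drosha, Dgcr8, Tarbp2, Ago1 and Ago4 had no call by CPM in any comparison. With edgeR's exact test at a dispersion of 0.16, which allows for spread between replicates, the only calls of members were Xpo5 in immature B over pre-B and Ago3 in mature B over immature B. Those of Xpo5, Dicer1, Ago2 and Tut4 in pre-B, of Dicer1, Ago2 and Tut4 in mature B over immature B and of Ago3 in mature B over pro-B were then lost. Over all genes, 1398 called higher and 2304 lower in pre-B over pro-B became 585 and 986 at that dispersion. In immature B over pre-B, 871 and 880 became 269 and 302. In mature B over immature B, 1766 and 1583 became 770 and 665. In mature B over pro-B, 1124 and 2142 became 431 and 1008.

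**Figure D1:**
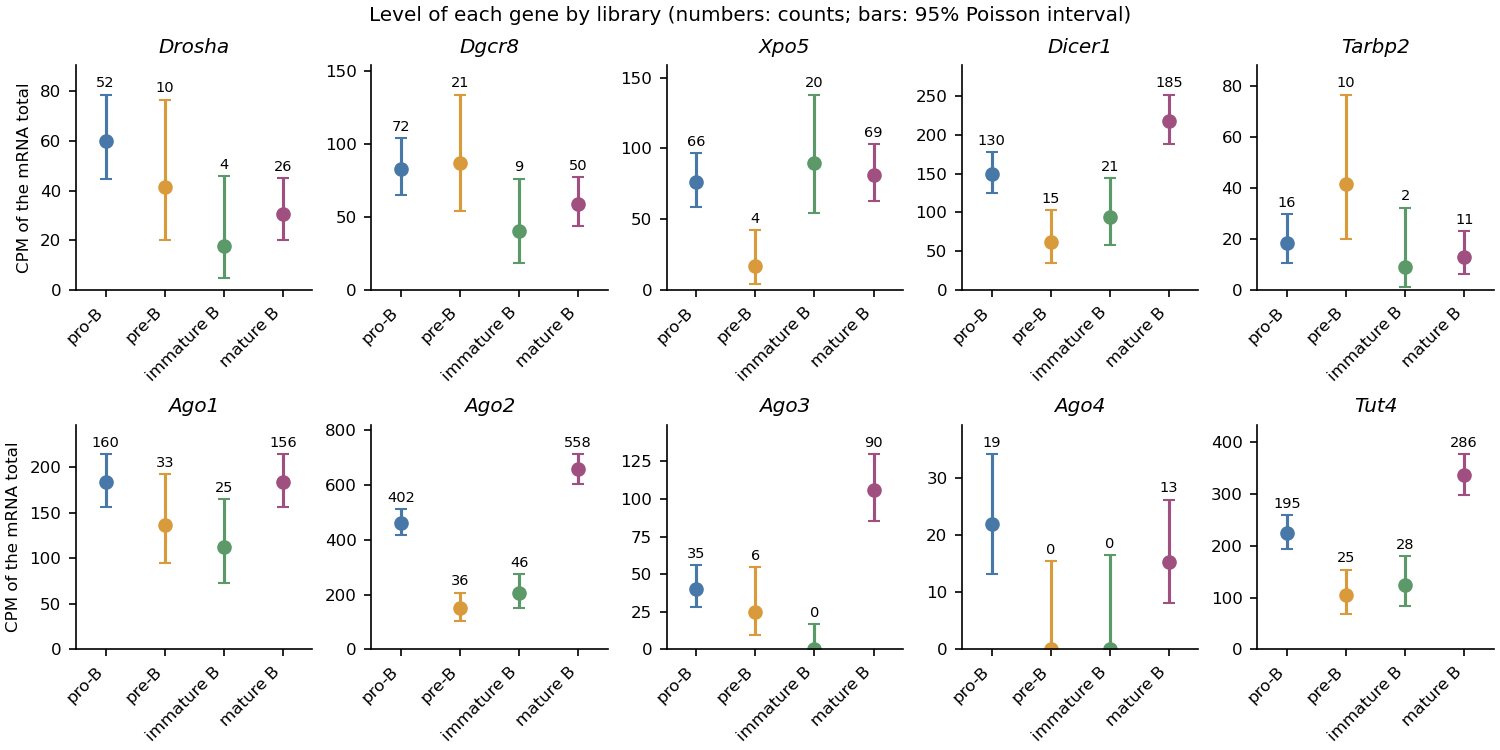
CPM of each member (vertical axis, own scale from 0 in each panel) in the 4 rRNA-depleted libraries (horizontal axis). Points carry 95% Poisson intervals and the numbers above them are counts, and Ago2 goes from 463 CPM in pro-B to 150 in pre-B, 206 in immature B and 657 in mature B cells.

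Neither nuclear cropping gene had a call by CPM. Drosha (ENSMUSG00000022191), the nuclease, had 52 counts in pro-B, 10 in pre-B, 4 in immature B and 26 in mature B cells, which are 59.9, 41.6, 17.9 and 30.6 CPM. Its pro-B level was the highest, and mature over pro-B was 0.511 (95% interval 0.306 to 0.833). On the deposited FPKM scale the same pair was level, with 2.12 and 2.13. Dgcr8 (ENSMUSG00000022718), the partner of Drosha, had 72, 21, 9 and 50 counts in the same order, or 83, 87.4, 40.3 and 58.9 CPM. Pro-B and pre-B were level by CPM, while by FPKM pre-B (0.85) was below pro-B (3.07).

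Xpo5 (ENSMUSG00000067150), the export receptor, had 66 counts in pro-B, 4 in pre-B, 20 in immature B and 69 in mature B cells, or 76, 16.7, 89.5 and 81.2 CPM. The pre-B library was low by CPM. Xpo5 was called lower there than in pro-B, by 4.57-fold (95% interval 1.7 to 17.3), and higher in immature B than in pre-B, by 5.37-fold (1.8 to 21.6). Both calls rest on the 4 pre-B counts, and the second is lost with a minimum of 30 counts. Mature over immature B was 0.908 by CPM and 3.43 by FPKM, so that its direction turned with the scale.

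Dicer1 (ENSMUSG00000041415), the cytoplasmic nuclease, had 130 counts in pro-B, 15 in pre-B, 21 in immature B and 185 in mature B cells, or 150, 62.4, 94 and 218 CPM. The pre-B level was 2.4-fold below pro-B (95% interval 1.4 to 4.41), and mature B was 2.32-fold above immature B (1.47 to 3.83). Both were calls. Tarbp2 (ENSMUSG00000023051) had 16, 10, 2 and 11 counts, or 18.4, 41.6, 8.95 and 13 CPM, and its intervals were wide. Pre-B over pro-B was 2.26 by CPM (0.916 to 5.29), not called, and 0.53 by FPKM, while with DESeq2's size factors it was called higher.

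Ago2 (ENSMUSG00000036698), the Argonaute best known for cutting its target, had 402 counts in pro-B, 36 in pre-B, 46 in immature B and 558 in mature B cells, or 463, 150, 206 and 657 CPM. The pre-B and immature B libraries, with few mRNA counts, were low and the other libraries high. Pre-B was 3.09-fold below pro-B (95% interval 2.2 to 4.48), and mature B 3.19-fold above immature B (2.36 to 4.41). Mature over pro-B was 1.42 (1.25 to 1.62), under the 2-fold limit. Fewer cells of a kind and less RNA per cell cannot be told apart in such bulk samples.

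Ago1 (ENSMUSG00000041530), which silences without cutting, had 160, 33, 25 and 156 counts, or 184, 137, 112 and 184 CPM. It was level between pro-B and mature B by CPM, at 0.996 (95% interval 0.794 to 1.25), and at 0.735 by FPKM. Ago3 (ENSMUSG00000028842), a further guide-binding Argonaute, had 35 counts in pro-B, 6 in pre-B, 0 in immature B and 90 in mature B cells, or 40.3, 25, 0 and 106 CPM. It was called higher in mature B than in immature B, by at least 7.89-fold with 3 counts in place of the estimated 0, and the exact lower 95% limit was 6.29. By CPM it was also the single member called between the pro-B and mature B libraries, 2.63-fold higher in mature B than in pro-B (95% interval 1.76 to 4), which the FPKM ratio of 1.78 does not reach. Among 4565 genes with 30 or more counts in both pro-B and mature B cells, 131 (2.87%) were at 0 in immature B and 120 (2.63%) in pre-B cells. Ago4 (ENSMUSG00000042500), the fourth of the family, had 19 counts in pro-B and 13 in mature B cells and 0 in both other libraries. This was not detectable as a difference of 2-fold, since 0 counts allow 12.5 CPM in pre-B against 21.9 CPM measured in pro-B. Ago3, Ago1 and Ago4 are neighbours on chromosome 4, while Ago2 is on chromosome 15.

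Shares within the 4 Argonautes do not depend on the library total. They were computed after the data were seen. Ago2 held 65.3% of the Argonaute counts in pro-B (exact 95% interval 61.4 to 69), 48% in pre-B (36.3 to 59.8), 64.8% in immature B (52.5 to 75.8) and 68.3% in mature B cells (65 to 71.5). Its pre-B interval was below those of the pro-B and mature B libraries and overlapped that of immature B. Ago1 held 26%, 44%, 35.2% and 19.1%, so that there were 2.51 Ago2 counts per Ago1 count in pro-B (2.09 to 3.04), 1.09 in pre-B (0.661 to 1.81), 1.84 in immature B (1.11 to 3.13) and 3.58 in mature B cells (2.99 to 4.3). Ago3 went from 5.68% in pro-B to 11% in mature B cells, with intervals apart (3.99 to 7.81 and 8.95 to 13.4). By FPKM the share of Ago2 was 59.6%, 70.3%, 63.4% and 59.1%, with no drop in pre-B. The number of counts per FPKM differed between libraries and genes, with 26.4, 13.7, 27.1 and 33 for Ago2, while Ago3 had 8.88 in pro-B and 85.7 in pre-B cells. Why the deposited scales part was not tested.

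**Figure D2:**
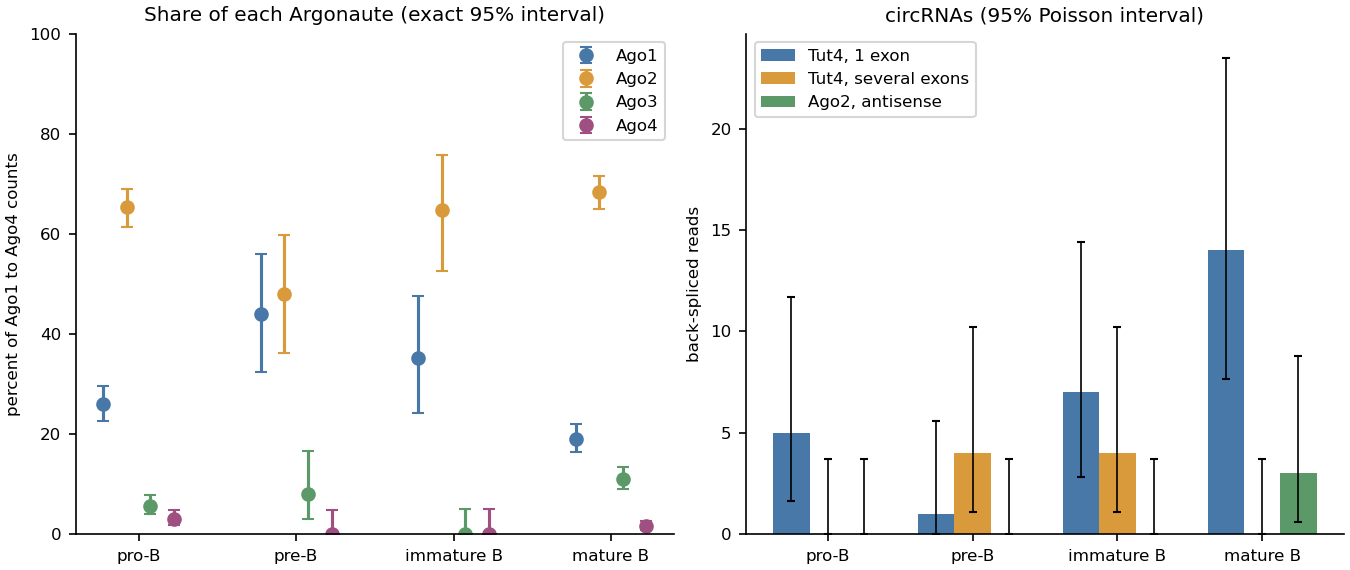
Left, percent of the Ago1 to Ago4 counts held by each gene per library, with exact 95% intervals, and right, back-spliced reads of the 3 circRNAs of the members, with 95% Poisson intervals. By counts, Ago2 is at 48% in pre-B against 65.3% in pro-B cells, and the 1-exon Tut4 circRNA has 14 reads in mature B cells.

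Tut4 (ENSMUSG00000034610), which adds uridines to RNA ends, had 195 counts in pro-B, 25 in pre-B, 28 in immature B and 286 in mature B cells, or 225, 104, 125 and 337 CPM. It was called lower in pre-B cells than in their pro-B predecessors, by 2.16-fold (95% interval 1.42 to 3.42), a call lost with DESeq2's size factors and with a total without the 10 leading genes, and higher in mature B than in immature B, by 2.69-fold (1.82 to 4.12). Mature over pro-B was 1.5 (1.24 to 1.81) by CPM, not called, and 2.01 by FPKM, where it was called.

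The members were ranked per length, by FPKM. Ago2 led in pro-B with 15.25 and Tut4 followed with 14.17, with overlapping counting intervals, and both were apart from Dicer1 at 6.32. In mature B cells Tut4 led with 28.55, apart from Ago2 at 16.92, which was apart from Dicer1 at 8.14. Ago3 at 7.01 overlapped Dicer1 there and was apart from Ago1 at 4.31. In immature B cells Tut4 (5.52) was apart from Ago2 (1.7), and from Ago2 down to Tarbp2 every neighbour overlapped the next. In pre-B cells the order was Tut4 2.84, Ago2 2.63, Tarbp2 1.41, Dicer1 1.34, Ago1 1.04, Dgcr8 0.85, Drosha 0.39, Xpo5 0.14 and Ago3 0.07, and each of these overlapped the next. Ago4 was last in every library, level with Ago3 at 0 in immature B cells, with 0.53 in pro-B and 0.38 in mature B cells.

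Against the table as a whole, 4 of 10 members were called lower and 0 higher in pre-B over pro-B, where 23.7% of the 9723 genes tested were called lower and 14.4% higher. The median log2 ratio was -0.75 for the members and -0.26 for all genes tested. In immature B over pre-B, 8 members had enough counts, 1 was called higher and 0 lower, beside 12.4% and 12.6% of 7011 genes. In mature B over immature B, 4 of 10 were called higher and 0 lower, beside 19.6% and 17.6% of 8998 genes, with medians of 0.74 and 0.07. In mature B over pro-B, 1 of 10 was called higher and 0 lower, beside 10.9% and 20.7% of 10323 genes, with medians of 0.05 and -0.18. Called both lower in the first step and higher in the last were 3 of 10 members and 10.4% of the 8297 genes tested in both. These counts describe 10 chosen genes, and whether they stand apart from other genes was not tested.

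**Figure D3:**
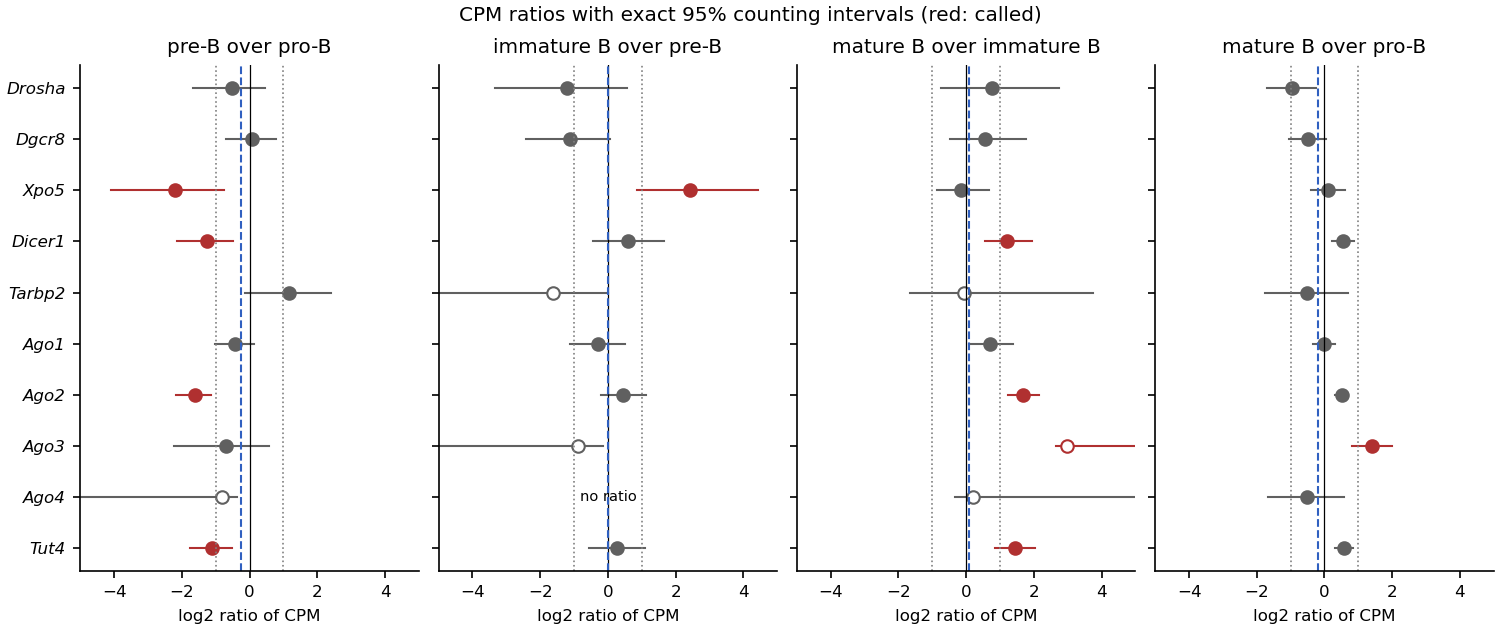
Log2 ratio of CPM (horizontal axis) of each member in the 4 comparisons, with exact 95% counting intervals, red for calls, open circles for 3 counts or fewer set to 3, dotted lines at 2-fold, a dashed line at the median of all genes tested, and lines that run on where they reach the edge. Ago2 lies at -1.63 for pre-B over pro-B and 1.67 for mature B over immature B.

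The choice of total decided how large the change in the libraries with few mRNA counts looked. On the deposited FPKM scale the median of all genes moved to -2.12 in pre-B over pro-B and 1.94 in mature B over immature B, and with the mRNA and lncRNA counts as the total to -2.13 and 1.93. With FPKM, 9 members were called lower in pre-B, beside 74.9% of all genes, and 10 higher in mature B over immature B, beside 69.8%. With the summed total it was likewise 9 and 10, beside 76.2% and 71.3%. Of all genes called in pre-B over pro-B, 37.8% were higher by CPM, 2.61% by FPKM and 2.27% by the summed total. In mature B over immature B they were 52.7%, 96.4% and 96.8%. Relative to the median of their own scale, Ago2 stayed below it in pre-B over pro-B and above it in mature B over immature B on each of these scales. In immature B over pre-B the ratio of Ago2 was 1.37 by CPM and 0.646 by FPKM and that of Dicer1 1.5 and 0.701, neither called.

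**Figure D4:**
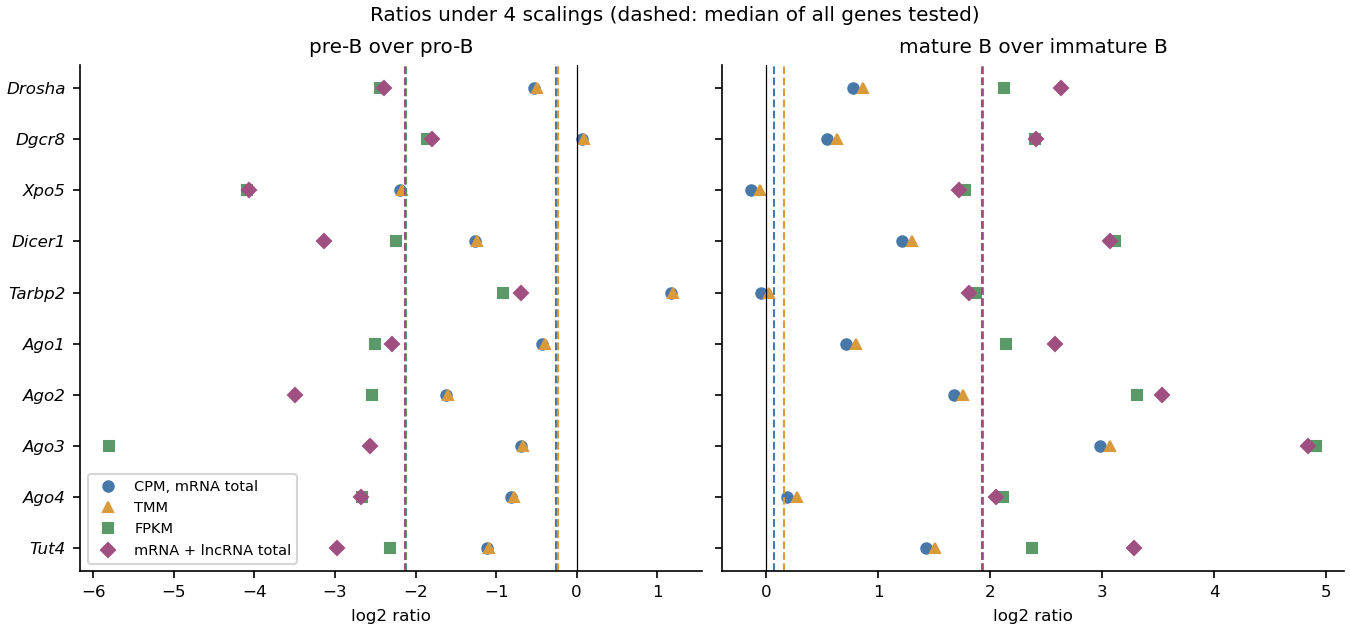
Log2 ratio (horizontal axis) of each member under 4 scalings, for pre-B over pro-B on the left and mature B over immature B on the right. Dashed lines in the same colours are the medians of all genes tested, at -0.26 by CPM and -2.12 by FPKM on the left.

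Marker genes of the stages were read in the same libraries. Ptprc, which encodes B220, had 290, 37.5, 71.6 and 676 CPM from pro-B to mature B cells, and Cd79b of the B-cell receptor had 780, 2073, 2707 and 925 CPM, both named after their values were seen. Ptprc was low where Ago2, Dicer1 and Tut4 were low, although every gate took cells with B220, and Cd79b was high there. The 5 pro-B genes summed to 2081, 142, 44.7 and 11.8 CPM from pro-B to mature B cells, led by Dntt in pro-B with 974 CPM, and Igll1 and Dntt were at 0 in the other libraries, Vpreb1 in pre-B and mature B and Kit in immature B cells. The 4 pre-B genes had 1278, 1066, 577 and 15.3 CPM, led by Rag1 in pro-B and pre-B and by Vpreb3 later, with Rag1 at 0 in immature B cells. Without Rag1, a sum taken after the data were seen, they had 359, 695, 577 and 14.1 CPM, highest in pre-B. The 3 immature B genes, mostly Ighm, had 4307, 7372, 8926 and 4751, and the 4 mature B genes 272, 191, 255 and 3365, with Fcer2a at 0 outside mature B cells.

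Genes of other cells were listed as well. The 5 NK-cell genes had 230 counts in pro-B, led by Gzma with 106, and 0, 2 and 2 in the later libraries. The 5 genes of plasmacytoid dendritic cells summed to 1902, 470, 966 and 867 CPM, led by Irf8, which B cells also express, and Siglech was at 0 in pre-B and mature B cells. The 8 myeloid genes had 1077, 1161, 926 and 847 CPM, led by Lyz2 or S100a8, with Csf1r at 0 in every library and Ctsg in immature B cells. The 9 T-cell genes had 87.6, 33.3, 71.6 and 13 CPM, led by Cd4 in pro-B and Cd247 elsewhere, with Cd3d and Cd3e at 0 in pro-B and 6 of the 9, Trac and Trbc1 among them, at 0 in each later library. The 4 plasma-cell genes had 316, 375, 282 and 111, led by Xbp1, with Prdm1 at 0 in pre-B cells. The 5 cell-cycle genes had 1173, 504, 228 and 274 CPM, led by Mki67, with Ccnb1 at 0 in immature B cells. The part of any of these cells in the levels of the members was not tested.

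Beyond the 10 members, 79 further genes of the pathway were listed by role. In pre-B over pro-B, 25 of the 71 with enough counts were called lower and 2 higher, beside 23.7% and 14.4% of all genes tested, and the median log2 ratio was -0.81 beside -0.26. In immature B over pre-B, 3 of 59 were called lower and 9 higher, beside 12.6% and 12.4%. In mature B over immature B, 6 of 69 were lower and 18 higher, beside 17.6% and 19.6%. In mature B over pro-B, 10 of 72 were lower and 3 higher, beside 20.7% and 10.9%. With edgeR's exact test at a dispersion of 0.16, 1 was lower and 0 higher there, beside 1008 and 431 of all genes. At most 1 of the calls named below for this comparison holds then. In both steps around the pre-B and immature B libraries, 14 of 68 were called lower and then higher, beside 10.4% of all genes. By FPKM, 66 were lower and 0 higher in pre-B over pro-B, beside 74.9% of all genes lower. In mature B over immature B, 59 were higher and 0 lower on that scale, beside 69.8% higher. With the mRNA and lncRNA counts as the total, 68 were lower and 60 higher in these steps, with 0 the other way, beside 76.2% and 71.3%.

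Among the 13 helpers of the Microprocessor, as the complex of Drosha and Dgcr8 is called, Ddx5 had the highest mean FPKM, 73.7. This RNA helicase had 1837, 232, 136 and 2653 counts, or 2117, 966, 609 and 3124 CPM from pro-B to mature B cells. Mature B was 5.13-fold above immature B (95% interval 4.32 to 6.14). Mettl3, the RNA methyltransferase that marks primary miRNA transcripts, went the other way by CPM, with 56.5, 154, 179 and 41.2 CPM, and was called higher in pre-B than in pro-B by 2.73-fold (1.73 to 4.27). Its FPKM were 5.04, 4.47, 3.99 and 3.25, so that the pre-B call does not hold on that scale. Srsf3, a splicing factor that binds such transcripts, had 409, 354, 286 and 126 CPM and was called lower in mature B than in pro-B, by 3.25-fold (2.61 to 4.07). It was also called lower than in immature B by CPM, while by FPKM it was level there, with 8.84 and 9.33. In the export group Rcc1 and Rangap1, which set the Ran gradient that drives Xpo5, were called lower in mature B than in pro-B, with 30 and 14.1 CPM for Rcc1 and 92.2 and 44.7 CPM for Rangap1. Both calls were narrow, with ratios of 0.472 and 0.485, and were lost with TMM (0.522 and 0.537) and with DESeq2's size factors (0.534 and 0.55). By FPKM the call of Rcc1 was lost too, at 0.748. Ran itself had 135, 167, 121 and 112 CPM and no call.

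Of the Dicer partners and double-strand RNA proteins, Prkra, a relative of Tarbp2, had 19, 2, 2 and 5 counts and was called lower in mature B than in pro-B. Adar, the adenosine deaminase and the highest of this group by mean FPKM, had 176, 133, 170 and 226 CPM and no call.

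Of 8 genes for loading Argonautes, 4 were called lower in pre-B over pro-B and 0 higher, beside 23.7% and 14.4% of all genes. Hsp90ab1, a chaperone, was listed with 180 counts in pro-B, 0 in pre-B, 0 in immature B and 311 in mature B cells, a difference of at least 27.3-fold for mature B over immature B with 3 counts in place of 0 and an exact lower 95% limit of 22.1. Fkbp4, a co-chaperone of Hsp90, had 103, 25, 148 and 91.8 CPM. It was called lower in the pre-B library than in pro-B cells and 5.91-fold higher in immature B than in pre-B (95% interval 2.45 to 17.3), as Xpo5 was. Only 6 pre-B counts carry these calls of Fkbp4. Ipo8, an importin that binds Argonautes, had 154, 58.3, 71.6 and 113 CPM and was called lower in pre-B. Hspa8, a chaperone with the highest mean FPKM of the group (60.3), had 1201, 616, 582 and 812 CPM.

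In the silencing complex, 5 of 13 genes were called lower in pre-B over pro-B and 0 higher, where the shares of all genes were 23.7% and 14.4%. Tnrc6a, the scaffold that joins Argonaute to the deadenylases, had 211, 13, 12 and 234 counts, or 243, 54.1, 53.7 and 276 CPM. It was 5.13-fold higher in mature B than in immature B cells (95% interval 2.88 to 10.1). Ddx6, a helicase that represses translation, had 399, 33, 0 and 348 counts, and mature B was at least 30.5-fold above immature B with 3 counts in place of 0, with an exact lower 95% limit of 24.7. These limits take an estimated 0 as a counted one. Ajuba, a scaffold of the complex, had 20 counts in pro-B and 0 in every other library. Pabpc1, the poly(A)-binding protein and highest by mean FPKM (42.2), had 1057, 641, 586 and 1036 CPM and no call.

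Of 20 genes for deadenylation, decapping and decay, 10 were called lower and 1 higher in pre-B over pro-B, beside 23.7% and 14.4% of all genes. In mature B over immature B, 8 were higher and 2 lower, beside 19.6% and 17.6%. Xrn1, the 5′ exonuclease, had 191, 25, 67.1 and 148 CPM and was 7.66-fold lower in the pre-B library than in pro-B cells. Cnot7, a deadenylase, had 62, 2, 7 and 85 counts, or 71.4, 8.33, 31.3 and 100 CPM. Cnot3 of the same complex had 17, 0, 10 and 6 counts. Pan3, which tethers another deadenylase, led by mean FPKM (15.3) and had 353, 125, 148 and 353 CPM.

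In the tailing and turnover group, Xrn2, a nuclear exonuclease, had 183, 6, 19 and 224 counts, or 211, 25, 85 and 264 CPM. It was called in each step between neighbouring stages, 8.44-fold lower in pre-B and then 3.4-fold and 3.1-fold higher. The calls of Xrn2 in the steps into and out of pre-B rest on its 6 counts there. Eri1, which trims RNA ends, had 80, 4, 2 and 65 counts, or 92.2, 16.7, 8.95 and 76.5 CPM. Parn, which shortens tails, had 18, 2, 12 and 44 counts, or 20.7, 8.33, 53.7 and 51.8 CPM. It was 2.5-fold higher in mature B than in pro-B (95% interval 1.41 to 4.59). Zc3h12a, an endonuclease, led by mean FPKM (11.1) and had 272, 233, 201 and 379 CPM. Of the germ-line relatives of the Argonautes, Piwil2 had 2 counts in pre-B and 0 elsewhere, and Piwil1 and Piwil4 had 0 in every library.

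The genes whose log2 CPM profiles over the 4 libraries were nearest to that of Ago2, of 4735 compared, were Ankhd1, Gm38394 and Mob1a, with Euclidean distances of 0.125, 0.152 and 0.181 between mean-centred profiles. Ankhd1 had 313, 95.7, 148 and 430 CPM. With 4 points per profile, many genes can lie close.

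The small RNA libraries gave totals of another shape. Tags of the 671 mouse miRNA rows summed to 768752 in pro-B, 1444396 in pre-B, 2106537 in immature B and 1060387 in mature B cells. They were highest in immature B, where the members' summed CPM was 694, against 1322 in pro-B, 666 in pre-B and 1700 in mature B cells. A tag total follows how deeply a library was sequenced. As a share of the tags of all miRNA rows the mouse rows gave 83%, 86.3%, 87.4% and 86.5%, and these shares lie far closer together than the totals. These 2 kinds of library were scaled separately, and neither gives the amount of miRNA per cell.

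Route by route, levels are given as tags per 1000000 mouse miRNA tags (tag CPM). miR-1306-5p, from the hairpin inside Dgcr8, had 366, 500, 682 and 310 tags from pro-B to mature B cells, or 476, 346, 324 and 292 tag CPM. Pro-B was highest, and mature over pro-B was 0.614 (95% interval 0.526 to 0.716). Its partner arm had 22.1, 49.8, 18 and 12.3 tag CPM, highest in pre-B, so that the arms did not run in parallel.

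miR-451a, cut by Ago2, had 121, 68, 38 and 72 tags, or 157, 47.1, 18 and 67.9 tag CPM. It was 3.34-fold lower in the pre-B library than in pro-B cells (95% interval 2.46 to 4.57) and 3.76-fold higher in mature B than in immature B (2.51 to 5.73). It was lowest in immature B cells. Ago2 was lowest in pre-B by CPM and in immature B by FPKM. This miRNA is known from red cells. The globin genes Hbb-bs and Hba-a2, named after their values were seen, had 207, 108, 58.2 and 109 CPM and 151, 137, 166 and 70.6 CPM in the same order of stages. They come from a list of 6 red-cell genes. Some of the other genes were higher in pre-B than in pro-B by CPM, so Hbb-bs and Hba-a2 do not stand for the list. The part of red cells in the miR-451a tags was not tested.

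Mirtrons were scarce. miR-877-3p had 24, 32, 52 and 5 tags, or 31.2, 22.2, 24.7 and 4.72 tag CPM, and miR-877-5p had 18, 24, 16 and 0 tags. The mature B library was thus low for both arms, with the 3p arm 6.62-fold below pro-B (95% interval 2.48 to 22.2). miR-702-3p had 0, 1, 18 and 15 tags. Of the listed mirtrons, miR-1224-5p and miR-702-5p had no row.

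Capped hairpins gave more tags. miR-484 had 13005, 25890, 35669 and 10525 tags, or 16917, 17924, 16933 and 9926 tag CPM, within 1.06-fold between neighbouring stages up to immature B and 1.71-fold lower in mature B than in immature B (95% interval 1.67 to 1.74). miR-320-3p had 568, 326, 262 and 285 tag CPM, highest in pro-B.

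The pair that shares a seed and targets Dicer1 did not move together. miR-103-3p had 1674, 1628, 1749 and 1258 tag CPM and was lowest in mature B, where Dicer1 was highest at 218 CPM. miR-107-3p had 418, 244, 223 and 289 tag CPM and was highest in pro-B. Whether either affects Dicer1 in these cells was not tested.

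**Figure D5:**
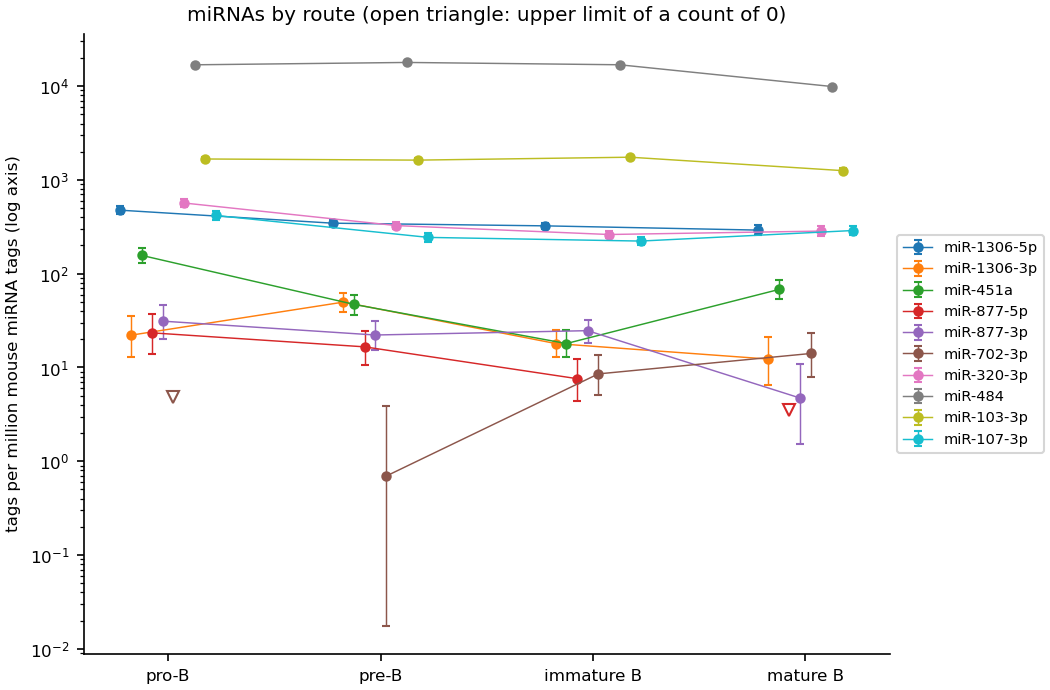
Tags per 1000000 mouse miRNA tags (log axis) of the 10 listed route miRNAs in the 4 small RNA libraries, with 95% Poisson intervals and an open triangle at the upper limit of a count of 0. miR-484 lies at 16917 in pro-B and 9926 in mature B cells, and miR-451a goes from 157 to 18 between pro-B and immature B cells.

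The most tagged mouse miRNAs are known to be made by the canonical route.
miR-191-5p: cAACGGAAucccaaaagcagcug
miR-181a-5p: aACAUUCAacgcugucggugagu
miR-26a-5p: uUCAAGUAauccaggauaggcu
miR-142a-5p: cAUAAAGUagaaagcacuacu
miR-191-5p (chr9:108568325-108568347, plus strand) was 17.4%, 24.6%, 22.3% and 13.4% of the mouse tags. miR-181a-5p, known for promoting early lymphoid development, was 12.1%, 11.9%, 14.9% and 5.04%, and miR-26a-5p stayed between 8.72% and 9.85%. miR-142a-5p (chr11:87756867-87756887, plus strand), a miRNA of blood cells, went up in every step, with 2.9%, 6.82%, 10.7% and 13.7%. miR-150-5p, a miRNA of mature lymphocytes, was 1.8%, 0.226%, 1.19% and 18.2%.

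Of 1005 circRNAs, 3 were assigned to members in the deposited table, 2 to Tut4 and 1, on the opposite strand, to Ago2. A 1-exon circRNA of Tut4 (novel_circ_000061, 869 bases) spanned chr4:108478873-108479741 on the plus strand and had 5 reads in pro-B, 1 in pre-B, 7 in immature B and 14 in mature B cells. Only 16 circRNAs of the table, this one included, had as many reads in all or more. A longer one (novel_circ_000011, 1150 bases), which starts at the same base and ends at 108491464, had 0, 4, 4 and 0 reads. The third (novel_circ_000327, 183 bases) was antisense to Ago2 at chr15:73174726-73174908 and had 3 reads in mature B cells and 0 elsewhere. Of 945 circRNAs with a source gene in RefSeq, 928 lay inside that gene or within 2000 bases of it in GRCm38.p6, while the submitters' processing notes list mm9. No mm9 annotation was at hand to set beside this, so that the build was taken from this match alone.

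Set against the gene's own counts, Tut4 had 2.56 back-spliced reads per 100 counts in pro-B (exact 95% interval 0.823 to 6.09), 20 in pre-B (5.98 to 53.2), 39.3 in immature B (17.6 to 81.4) and 4.9 in mature B cells (2.64 to 8.35). For all circRNAs together, the reads per 100 mRNA counts were 0.158, 0.716, 0.783 and 0.18. Both were higher in the libraries with few mRNA counts. This ratio was computed after the data were seen. All back-spliced reads together numbered 1370, 1719, 1751 and 1531, which lie far closer together than the mRNA totals they were divided by.

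The lncRNA table, searched after the data were seen, also held 22 noncoding transcripts of 7 members, of which 12 were above 0. A Dicer1 transcript (ENSMUST00000222528) had the most, with 61.4, 2.83, 9.82 and 86.6 counts from pro-B to mature B cells. It was low in the same libraries as the Dicer1 counts of the mRNA table. Noncoding transcripts of Ago2 summed to 24.8, 5.96, 2.55 and 22.5 counts in the same order. Those of Tut4 summed to 26.9, 23.7, 17.7 and 58.6. In pre-B cells that is nearly as many as the 25 Tut4 counts of the mRNA table. Member ratios with these transcripts added were not computed.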

How the data were processed

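RNA of 4 sorted stages was sequenced, with 1 library per stage and type. The authors cleaned reads with fastp, removed rRNA reads with Bowtie2, mapped the rest with HISAT2 and deposited estimated counts from StringTie for mRNAs and lncRNAs, which are not all whole, and FPKM values. Back-spliced read counts from find_circ and RPM of circRNAs were deposited too, as were tag counts and TPM of miRNAs, the TPM being relative to clean tags with 0.01 in place of 0. Tags were assigned with miRBase and mirdeep2, and the submitters' processing notes list Bowtie 0.12.2 and mm9.

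Estimated counts were summed per symbol and rounded. Intervals are exact (Poisson for counts, Clopper-Pearson for splits and shares), at 95%. For a fold, counts of 0 to 3 were set to 3, while intervals used the counts as listed. Reads without molecular identifiers are not independent molecules. Named are all members, per role the up to 3 genes with the largest called ratio and the one with the highest mean FPKM, the route miRNAs, the 3 most tagged miRNAs per library, the 3 profiles nearest to Ago2 (at least 100 counts, CPM plus 1 on the log2 scale) and the circRNAs of members. Members and lists were chosen with earlier results of these data known. Alternatives were FPKM, TMM (edgeR 4.0.16), DESeq2 1.42.0 size factors, other totals and other call rules, including edgeR's exact test between 2 libraries. The call rule was tested on simulated data with Poisson counts and 200 genes changed 4-fold, of which 93% were called for pre-B over pro-B (9682 genes), 94.5% for immature B over pre-B (6908), 91% for mature B over immature B (8919) and 98% for mature B over pro-B (10272). Of unchanged genes 1.81%, 2.04%, 1.5% and 1.3% were called. The changed genes were drawn from those with at least 30 counts over the 2 libraries, so their shares do not cover genes with fewer counts. No spread between replicates was simulated, and the rates hold for counting error alone. Python 3.11.15, numpy 2.4.6, pandas 2.3.3, scipy 1.17.1, matplotlib 3.10.9 and R 4.3.3 were used.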

Additional observations from a re-analysis of the deposited data

How the results depend on the processing

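No paired analysis was possible because each stage has 1 library of each type, numbered 1. Leaving out the pre-B and immature B libraries leaves only mature B over pro-B, given above.

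TMM, DESeq2 size factors, a single row per symbol and a total without the 10 leading genes kept all 39 member ratios inside their counting intervals. With FPKM 21 of 39 left them, and with the summed mRNA and lncRNA total 14. Adding noncoding transcripts, an alternative chosen after seeing the data, moved 5 of 24 member counts beyond their intervals, and FPKM did so for 3 of 4 Ago2 shares. Scalings of the named pathway genes were also added then, and the calls they end are named above for Mettl3, Srsf3, Rcc1 and Rangap1. Cnot3 for mature B over pro-B (0.361) lost its call with TMM (0.399), DESeq2's size factors (0.409) and FPKM (0.752), and Ddx5 for pre-B over pro-B (0.456) with DESeq2's size factors (0.517). For mature B over immature B, FPKM and the summed total ended the calls of Cnot3 (0.158 to 0.526 and 0.573) and Mettl3 (0.23 to 0.815 and 0.835).

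For pre-B over pro-B, members called went from 4 to 9 with FPKM or the summed total and to 0 with edgeR's exact test at a dispersion of 0.16. Pathway genes went from 27 to 66, 68 and 12 in the same order. For immature B over pre-B, members went from 1 to 2 with FPKM, 0 with a minimum of 30 counts, 4 with the fold alone and 2 with edgeR's exact test at a dispersion of 0.0001 and a 2-fold difference in FPKM, and pathway genes from 12 to 3 at a dispersion of 0.16. For mature B over immature B, members went from 4 to 10 with FPKM or the summed total and to 1 at a dispersion of 0.16, and pathway genes from 24 to 59, 60 and 9. For mature B over pro-B, members went from 1 to 2 at 1.5-fold and 0 at a dispersion of 0.16, and pathway genes from 13 to 21 and 1. All genes called at a dispersion of 0.16 are given above. In immature B over pre-B, 871 higher and 880 lower became 393 and 441 with 30 counts and 1288 and 1328 with the fold alone. They were 1115 and 1080 with FPKM and 781 and 881 at a dispersion of 0.0001. In mature B over pro-B, 1124 and 2142 became 1599 and 2750 at 1.5-fold, 1324 and 2293 with FPKM and 1121 and 2067 at a dispersion of 0.0001. With these last 2 rules the number of members called there stayed at 1, but it was Tut4 in place of Ago3.

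Ratios of mouse miRNA tags, 1.88, 1.46, 0.503 and 1.38 in the 4 comparisons, became 1.04, 1.01, 0.99 and 1.04 as shares of all rows and 1.05, 1, 0.945 and 1 as shares of clean tags. miR-181a-5p for pre-B over pro-B turned from 0.986 to 1.04 with TPM, as did miR-103-3p, whose interval includes 1, from 0.972 to 1.03, and 11 of 55 ratios of named miRNAs moved beyond their intervals. Counting a read pair as 1 takes the 38 back-spliced reads to 19 by construction, which says nothing about their stability. Beyond the scalings themselves, the cause was not tested. The number of mRNA counts limits Drosha, Tarbp2, Ago3 and Ago4 most, with 10 or fewer counts each in the pre-B and immature B libraries.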

Other observations

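Some rows of the miRNA table carry names of other species but hold a mouse mature sequence with 1 to 6 bases added at the 3′ end. This search was added after the data were seen. Of 929 rows without a mouse name, 146 were of this kind, with 57612 tags in pro-B, 76997 in pre-B, 119949 in immature B and 56355 in mature B cells. In 13 rows the RefSeq hairpin encodes the added bases. In 30 rows the addition was U alone, the base that Tut4 adds, with 3682 of every 1000000 tags of the table in pro-B, 2640 in pre-B, 2748 in immature B and 1401 in mature B cells. The library with the highest Tut4 level, mature B, was thus the lowest here. Additions of A alone, in 27 rows, had 2542, 1832, 1689 and 2034 on the same scale. Most of the tags were in 76 rows with other or mixed bases added, at 55594, 41305, 45056 and 42247. Each row shows 1 sequence for all its tags, which may hold others, so these sums are not a measure of tailing, and a relation to Tut4 was not tested.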
